A study of Mus musculus with 14 samples.

Results

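The 10 imprinted genes described here, all transcribed from the paternal allele, were followed through mouse embryonic stem cell (ESC) differentiation with and without an shRNA against DIS3L2, a 3′ to 5′ exoribonuclease that degrades oligouridylated RNA. The 10 genes are Peg3, Usp29, Mest, Plagl1, Peg10, Sgce, Snrpn, Ndn, Impact and Nnat. They were chosen by name as established paternally expressed genes, with earlier results of these data known. All 10 are among the 16181 genes of the normalized table and the 50686 genes of the count table. The ESC line carries an Osr1-GFP reporter and expresses a stable shRNA against LacZ, the control (shLacZ), or against Dis3l2 (shDis3l2). Undifferentiated ESCs in LIF and 2i gave the libraries of d0, and embryoid bodies (EBs), aggregates formed in hanging drops with serum after LIF and 2i were withdrawn, gave d2, d4, d6, d8, d10 and d12. PolyA RNA was sequenced with 1 library per line and day, 14 in all, so the days form 1 series and each day is compared without a replicate.

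Genomic imprinting is the expression of a gene from the allele of 1 parent, fixed by DNA methylation that the germ line leaves on a control region and that is kept through the replication of the early embryo. Several of the 10 genes lie in clusters with maternally expressed genes, and several act on growth, on the placenta or in the brain. The read counts do not separate the alleles, so the values below are the sum of both and say nothing of imprint status. In bulk EBs, fewer cells of a type and less RNA per cell cannot be told apart.

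The genes occupy 7 stretches of the GRCm38 genome, here given with the coordinates and strands of the deposited counts. Peg3 (ENSMUSG00000002265, chr7:6703892-6730431, minus strand) and Usp29 (ENSMUSG00000051527, chr7:6730578-6967219, plus strand) lie head to head. Peg10 (ENSMUSG00000092035, chr6:4747306-4760517, plus strand) and Sgce (ENSMUSG00000004631, chr6:4674350-4747207, minus strand) lie head to head as well. Mest (ENSMUSG00000051855) is at chr6:30723547-30748465 and Plagl1 (ENSMUSG00000019817) at chr10:13060504-13131694, both on the plus strand. Snrpn (ENSMUSG00000102252, chr7:59982495-60140219, minus strand) and Ndn (ENSMUSG00000033585, chr7:62346569-62350262, plus strand) belong to 1 imprinted cluster. Impact (ENSMUSG00000024423) is at chr18:12972252-12992948 and Nnat (ENSMUSG00000067786) at chr2:157560078-157562522, both on the plus strand, and Nnat lies inside an intron of Blcap, which is read from the opposite strand.

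The sources used here do not give the strand setting of the counting. Reads of Nnat and Blcap, and of the overlapping 3′ ends of Mest and Copg2, may therefore have been lost or exchanged where exons overlap. Snurf, which shares exons with Snrpn, is listed at 0 reads in all 14 libraries, so the Snrpn counts cannot be split between the transcripts. Reads on the shared exons may have been dropped, which would lower the levels of Snrpn per length and raise the Ndn to Snrpn ratios given below.

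RefSeq promoters (250 bases before to 50 bases after a start site, GRCm38.p6) were available for 7 of the 10 genes, and the bases upstream of the start sites that no annotated GENCODE exon covers are shown for 5 of the 6 genes that passed as higher in shDis3l2 in the test over d6 to d12. For the other one, Ndn, an annotated exon covers the whole stretch. Capitals mark CpG dinucleotides, the bases on which an imprint is written. The Peg3-Usp29 stretch is the whole interval between the annotated exons of both genes, whose RefSeq start sites are 164 bases apart. All are on the plus strand: chr7:6730432-6730577 for Peg3-Usp29, chr6:30737800-30738049 for Mest, chr10:13090582-13090690 for Plagl1 and chr2:157560008-157560077 for Nnat.
Peg3-Usp29: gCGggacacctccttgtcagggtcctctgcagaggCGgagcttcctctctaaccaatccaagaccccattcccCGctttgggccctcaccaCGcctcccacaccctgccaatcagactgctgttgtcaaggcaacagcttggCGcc
Mest: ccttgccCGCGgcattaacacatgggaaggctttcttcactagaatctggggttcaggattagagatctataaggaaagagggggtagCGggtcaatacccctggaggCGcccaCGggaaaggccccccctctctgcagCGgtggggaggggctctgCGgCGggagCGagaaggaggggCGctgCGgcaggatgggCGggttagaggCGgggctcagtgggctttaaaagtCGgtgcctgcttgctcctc
Plagl1: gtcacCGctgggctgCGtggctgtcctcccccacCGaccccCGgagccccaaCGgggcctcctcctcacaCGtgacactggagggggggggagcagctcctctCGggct
Nnat: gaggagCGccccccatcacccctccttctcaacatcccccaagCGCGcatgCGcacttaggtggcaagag

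The stretch shared by Peg3 and Usp29 holds 5 CpG in 146 bases, against 14 in 250 bases for Mest, 7 in 109 for Plagl1 and 4 in 70 for Nnat. Over the full 300 bases, Plagl1 had 26 CpG, more than 83.1% of the 32851 promoters of that length, whose median was 7. Usp29, Nnat and the downstream promoters of Mest had 17, Peg3 had 13, Ndn had 11 and the 4 Snrpn promoters had 2 to 7. The hexamer TGCCGC, bound by the imprint-protecting factor ZFP57 when its CpG is methylated, was found on either strand 2 times in the downstream Mest promoters, 1 time each in those of Plagl1 and Nnat and 1 time in 1 Snrpn promoter. It occurs in 11.6% of all promoters of this length and itself contains a CpG. The palindrome GGGGCCCC, a site described for PLAGL1, was found 1 time in each of the overlapping Peg3 and Usp29 windows and in 1.08% of all promoters, and the YY1 core GCCATNTT, present in 6.05%, was in none of the windows of the 7 genes. These matches are descriptions of the letters and were not tested for binding.

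Reads on genes numbered from 7178712 to 39888099 per library, of which the 10 genes together took from 0.0116% of them (shDis3l2 d0) to 1.27% (shDis3l2 d6). Dis3l2 RNA in the shDis3l2 line was 13.7%, 28.1% and 32.1% of that in shLacZ at d0, d2 and d4. From d6 to d12 it was 55.2%, 97.1%, 95% and 75.5%. At d8 and d10 the 95% counting interval of the ratio included 1 (0.837 to 1.13 and 0.788 to 1.15), so the knockdown was not detectable there and the libraries are named by their labels. Levels are reads scaled to a common library total (CPM) after a prior count of 0.25 was added, and intervals are exact Clopper-Pearson intervals that cover counting error only. The ESC state of d0 was visible in the 10 pluripotency markers, whose summed level at d0 was 4946 CPM (shLacZ) and 3914 CPM (shDis3l2), against 1157 and 1189 CPM at d4.

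The first comparison asked what happened to the 10 genes as both lines left the ESC state. Of these, 9 rose from d0 to d4, by up to 117-fold, and 1, Plagl1, did not pass the test. The test was edgeR's quasi-likelihood test on the 6 libraries of d0, d2 and d4 with the lines as a block and adjusted p over 18962 genes. The 2 lines stand in for replicates here. These p-values therefore measure how far the change differed between the control and knockdown lines, not between cultures of 1 line. Among all genes 37.5% rose and 33.9% fell, and the median log2 fold was 2.21 over the 10 genes and 0.13 over all genes tested. With library totals in place of TMM scaling the median of all genes was 0.71, and 67.4% of the genes called rose against 52.5%, so these changes are given relative to TMM. The count of 9 that rose was the same under 10 of 10 alternatives.

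**Figure D1:**
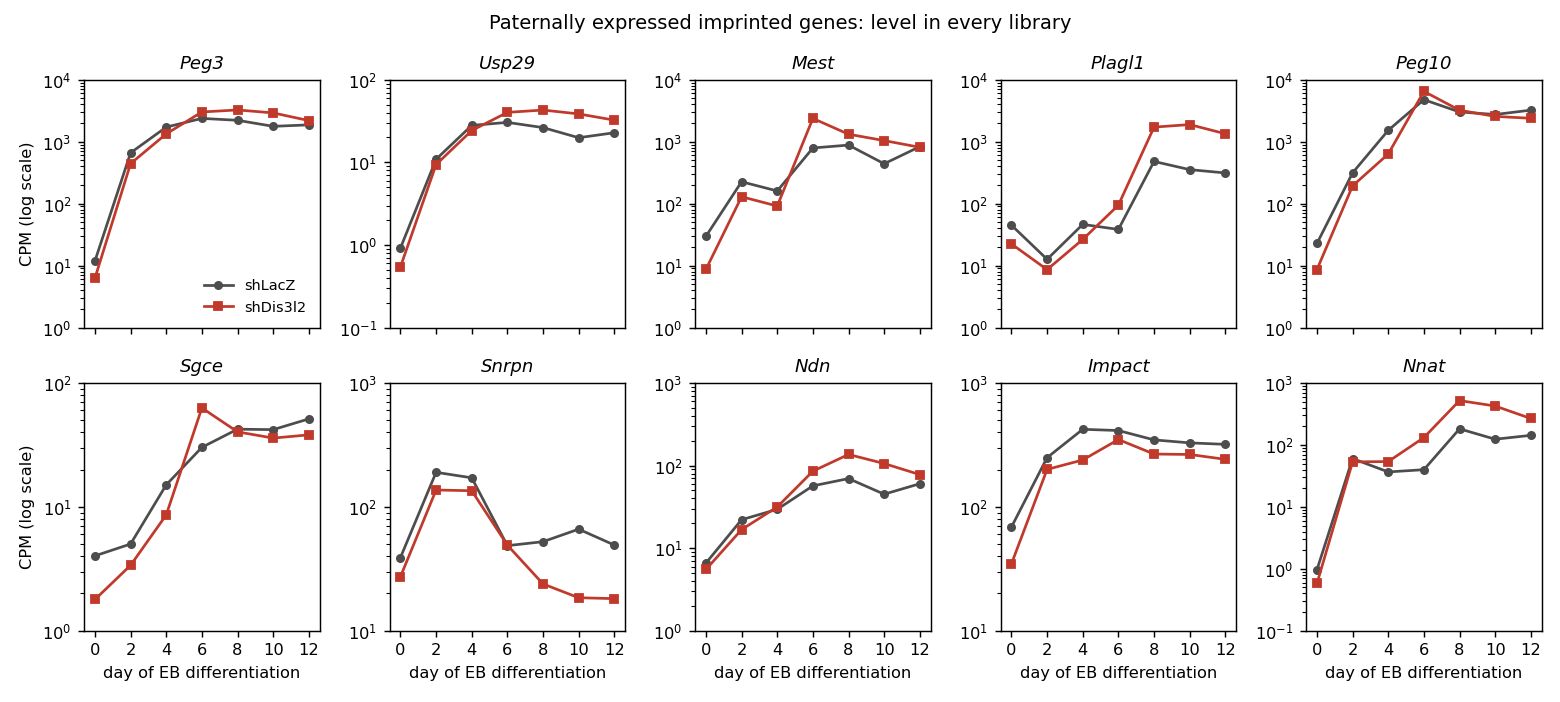
CPM (log scale) of each of the 10 genes against the day of EB differentiation in the shLacZ (grey circles) and shDis3l2 (red squares) lines, 1 library per point. Peg3 goes from 11.9 and 6.28 CPM at d0 to 1869 and 2192 CPM at d12, Snrpn is highest at d2, and Plagl1 in shDis3l2 is below shLacZ through d4 and above it from d6.

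Peg3, a large zinc finger protein, had 11.9, 661, 1719, 2376, 2215, 1769 and 1869 CPM in shLacZ from d0 to d12. In shDis3l2 the values were 6.28, 443, 1337, 3016, 3253, 2914 and 2192 CPM. Both lines were lowest at d0, and the highest level was 200-fold over the lowest in shLacZ and 518-fold in shDis3l2. From d0 to d4 Peg3 rose 117-fold over both lines (log2 fold 6.87, SE 0.20, edgeR adjusted p = 5.31e-07). Usp29, a deubiquitinase read from the other side of the same promoter region, rose 24.5-fold (log2 fold 4.61, SE 0.30, edgeR adjusted p = 3.1e-06).

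Peg10, a retrotransposon-derived gene needed for the placenta, had 22.8, 314, 1526, 4764, 3017, 2748 and 3230 CPM in shLacZ. In shDis3l2 it had 8.63, 194, 633, 6491, 3220, 2559 and 2387 CPM, so both lines were highest at d6. It rose 46.8-fold from d0 to d4 (log2 fold 5.55, SE 0.21, edgeR adjusted p = 6.93e-07). Sgce, epsilon-sarcoglycan of the muscle membrane complex, went from 4.03 to 15.1 CPM in shLacZ and from 1.79 to 8.61 CPM in shDis3l2, and rose 2.82-fold (log2 fold 1.49, SE 0.31, edgeR adjusted p = 0.00204).

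Nnat, which encodes neuronatin, a small proteolipid of the endoplasmic reticulum membrane, had 0.967 and 0.580 CPM at d0. It had 60.2 and 53.3 CPM at d2 and rose 38.9-fold by d4 (log2 fold 5.28, SE 0.31, edgeR adjusted p = 1.96e-06). Impact, a regulator of the kinase GCN2 in translation control, rose 4.34-fold, and Mest, a membrane protein of the hydrolase fold family, 4.91-fold. Ndn, which encodes necdin of the MAGE family, rose 3.39-fold and Snrpn, which encodes the spliceosomal protein SmN, 3.11-fold. The adjusted p of these 4 in the same edgeR fit lay between 1.03e-05 and 0.00014.

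Plagl1, a zinc finger transcription factor linked to cell cycle arrest, did not take part in this early rise. It had 44.9, 12.6 and 46.3 CPM at d0, d2 and d4 in shLacZ and 22.4, 8.61 and 26.4 CPM in shDis3l2, with the lowest value of the series at d2 in both lines. From d0 to d4 its log2 fold was -0.44 (SE 0.19, edgeR adjusted p = 0.0560), and with library totals in place of TMM it was 0.14. It passed as lower with DESeq2 size factors (-0.50, edgeR adjusted p = 0.0332), with DESeq2 (-0.50, adjusted p = 0.0451) and without shDis3l2 d0 (-0.52, edgeR adjusted p = 0.0297). Its main increase came between d6 and d8, from 38.3 to 480 CPM in shLacZ and from 94.6 to 1719 CPM in shDis3l2, ratios of 12.5 and 18.2.

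Snrpn, which had the lowest share of its highest level left at d12 in both lines, was highest at d2. It had 39.0, 190, 172, 48.6, 52.4, 66.1 and 49.2 CPM in shLacZ. In shDis3l2 it had 27.3, 137, 135, 49.1, 23.9, 18.5 and 18.2 CPM. The level of d12 was 25.9% of the highest in shLacZ and 13.3% in shDis3l2, while the other 9 genes had 65.2% to 100% in shLacZ and 34.2% (Mest) to 75.5% (Usp29) in shDis3l2.

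Per length (CPM per kilobase of exon, RPKM), the order of the 10 genes changed with differentiation. At d0 Impact (20.0 RPKM in shLacZ, 10.1 in shDis3l2) and Snrpn (18.1 and 12.7) led, and Usp29 was lowest (0.05 and 0.03). From d6 on Peg10 was highest in every library, with 412 to 715 RPKM in shLacZ and 358 to 974 in shDis3l2. In shLacZ from d6 to d12, Mest (112 to 223 RPKM), Peg3 (133 to 178) and Impact (93.1 to 120) followed, and the ranges over the 4 days overlapped between Mest and either of the others but not between Peg3 and Impact. Nnat (21.8 to 99.4) reached into the range of Impact, and Plagl1 (4.90 to 61.4) overlapped Nnat, Snrpn (22.5 to 30.6) and Ndn (12.2 to 18.8). The ranges of Snrpn, Ndn, Sgce (2.85 to 4.83) and Usp29 (1.10 to 1.68) were separate from each other. In shDis3l2 Plagl1 ranked 3 of 10 at d10 and d12, with 242 and 172 RPKM, against rank 6 in shLacZ with 45.3 and 40.02 RPKM.

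Levels per length were also compared between genes of 1 locus or cluster. Peg3 exceeded Usp29 per length 63.8-fold to 121-fold in the 12 libraries of d2 to d12, with a median of 102, and 17.6-fold and 15.7-fold at d0. Peg10 exceeded Sgce 91.3-fold to 251-fold over the same 12 libraries and 8.997-fold and 7.67-fold at d0. The ratio of Ndn to Snrpn went from 0.07 in both lines at d2 to 0.72 in shLacZ and 2.50 in shDis3l2 at d12.

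**Figure D2:**
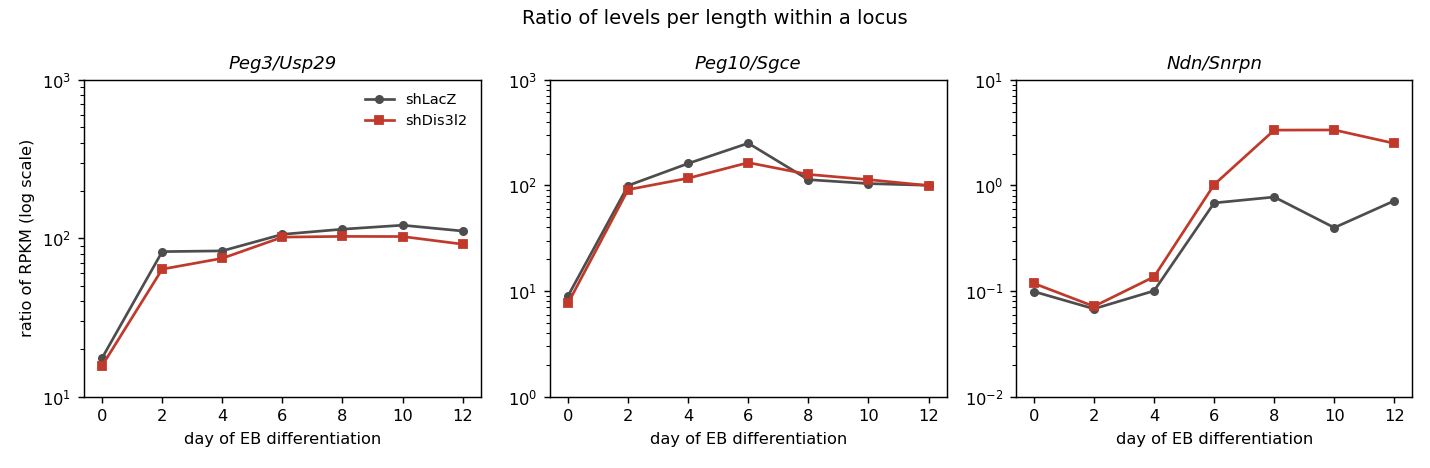
Ratio of RPKM (log scale) between genes of a locus by day, with shLacZ as grey circles and shDis3l2 as red squares, 1 library per point. Peg3/Usp29 stays between 63.8 and 121 after d0, while Ndn/Snrpn in shDis3l2 climbs to 3.35 at d10 against 0.40 in shLacZ.

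The next comparison was between the lines on each day. Before d6 the 10 genes were mostly lower in shDis3l2, and at d6 most were higher. All 10 were lower at d0 and at d2 and 8 at d4, while from d6 to d12 9, 7, 6 and 5 were higher. The counting interval lay below 1 for 7, 9 and 7 genes at d0, d2 and d4, and above 1 for 0, 0 and 1. The gene above 1 at d4 was Nnat, at 1.47-fold (1.28 to 1.69). From d6 to d12 it lay above 1 for 8, 7, 6 and 5 genes and below 1 for 1, 2, 4 and 4. With TMM scaling 8 were higher at d6 and 6 at d8, and with DESeq2 size factors 1 of the 10 was higher at d0. The shares of all genes lower or higher on each day were not counted, so these counts have no base rate. At d0 the median log2 fold of all genes was itself negative (-0.32), and Ndn (-0.26) lay above it.

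The median log2 fold of the 10 genes was -0.95, -0.51 and -0.58 at d0, d2 and d4 and 0.52, 0.57, 0.84 and 0.10 from d6 to d12. Over all genes compared it was -0.32 at d0, -0.07 at d2 and between -0.01 and 0.05 on the later days. With TMM scaling the median of all genes at d0 was -0.07, so part of each d0 fold is shared by all genes.

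A day's difference was called at 3-fold or more, given a level of 1 CPM or more in 1 of the libraries. By this rule 1 of the 10 genes was changed at d0 (2.83% of all genes compared), none at d2 (0.243%) or d4 (2.03%) and 2 at d6 (6.92%). On d8 it was 1 (9.16%), on d10 3 (11.8%) and on d12 1 (9.54%). Mest was the gene called at d0, at 29.3% of the shLacZ level, and it fell short of 3-fold there with TMM scaling or DESeq2 size factors. Plagl1 was called on d8, d10 and d12, Nnat on d6 and d10, Mest on d6 and Snrpn, as lower, on d10. Mest at d6 stood at the threshold itself, with 3.002-fold (2.93 to 3.07), and was not called with TMM scaling or the authors' denominators. Nnat at d8 lay just under it, with 2.86-fold (2.75 to 2.98).

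**Figure D3:**
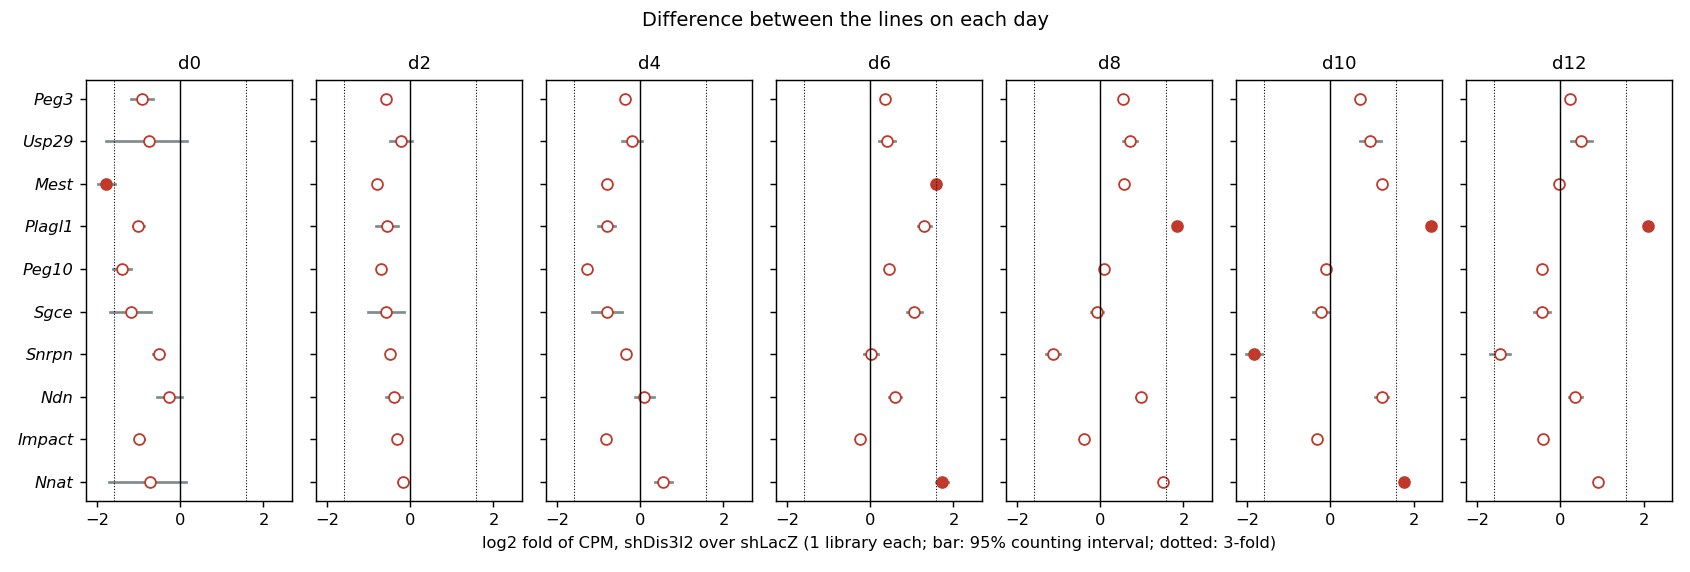
Log2 fold of CPM, shDis3l2 over shLacZ, for each of the 10 genes in 1 panel per day, with bars for the 95% counting interval, dotted lines at 3-fold and filled points for genes past 3-fold with at least 1 CPM. Points lie to the left of 0 at d0 and d2, and Plagl1 is past 3-fold at d8, d10 and d12.

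The days d6 to d12 were then tested together, with the day as a block, by edgeR's quasi-likelihood test over 17164 genes. In shDis3l2 6 of the 10 genes were higher (Plagl1, Nnat, Mest, Ndn, Usp29 and Peg3), 2 were lower (Snrpn and Impact) and Peg10 and Sgce did not pass. Among all genes 19.6% were higher and 18.7% lower, and the median log2 fold was 0.54 over the 10 genes and 0.02 over all genes tested. Because days of 1 series stand in for replicates, these p-values measure the spread of the difference between days and not between cultures. Without d8 the test passed 5 of the 10 genes, without d10 also 5, and without the day block 2 (Usp29 and Ndn). Without d6 or without d12 it passed 7.

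Of the 10 genes, 5 (Peg3, Usp29, Plagl1, Ndn and Nnat) were higher in shDis3l2 on each of the 4 days and 1 (Impact) was lower on each, as were 29.5% and 26.4% of all genes compared. For 2 genes, Usp29 and Ndn, the 4 libraries of shDis3l2 lay above the 4 of shLacZ without overlap, and for none did they lie below, against 13.4% and 10.8% of all genes.

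Plagl1 had the largest difference of the 10 in this test. It had 38.3, 480, 354 and 313 CPM in shLacZ and 94.6, 1719, 1889 and 1343 CPM in shDis3l2 from d6 to d12, higher on each day while the ranges overlapped. The folds of the days were 2.47, 3.58, 5.33 and 4.29, and the tested difference was 3.79-fold (log2 fold 1.92, SE 0.17, edgeR adjusted p = 0.000596). It stayed past the threshold without any 1 of the 4 days and was lost without the day block (adjusted p = 0.136).

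Nnat had 39.9, 182, 124 and 143 CPM in shLacZ and 131, 520, 424 and 267 CPM in shDis3l2. It too was higher on each day with overlapping ranges, and the tested difference was 2.77-fold (log2 fold 1.47, SE 0.15, edgeR adjusted p = 0.000908). Blcap, the gene around it, was 1.47-fold higher in the same fit (log2 fold 0.56, SE 0.10, edgeR adjusted p = 0.00522). Without the day block Nnat had an adjusted p of 0.0777.

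Mest had 791, 882, 440 and 833 CPM in shLacZ and 2376, 1320, 1042 and 812 CPM in shDis3l2, so it was higher at d6, d8 and d10 and level at d12 (0.975-fold, interval 0.946 to 1.005). The tested difference was 1.79-fold (log2 fold 0.84, SE 0.25, edgeR adjusted p = 0.0374). This call was lost without d6 (adjusted p = 0.0749), without d8 (0.0968) and without d10 (0.158), and with DESeq2 (0.0645). Copg2, which meets Mest at the 3′ end, was 1.22-fold higher (log2 fold 0.29, SE 0.09, edgeR adjusted p = 0.0353).

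Ndn had 56.8, 69.6, 45.0 and 60.3 CPM in shLacZ and 85.6, 136, 106 and 77.7 CPM in shDis3l2, without overlap. It was 1.72-fold higher (log2 fold 0.78, SE 0.15, edgeR adjusted p = 0.00667). Usp29 had 30.5, 26.3, 19.9 and 22.8 CPM in shLacZ and 40.3, 43.0, 38.6 and 32.4 CPM in shDis3l2, also without overlap, and was 1.55-fold higher (log2 fold 0.63, SE 0.11, edgeR adjusted p = 0.00602). These are the 2 genes that passed under all 9 alternatives of this test.

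Peg3, across the promoter region from Usp29, was 1.37-fold higher over the same days (log2 fold 0.45, SE 0.10, edgeR adjusted p = 0.0115). Its daily folds were 1.27, 1.47, 1.65 and 1.17, so it was higher on each day, while 1 shDis3l2 library (d12, 2192 CPM) lay within the shLacZ range. Without d8 the adjusted p was 0.0705 and without d10 it was 0.0530.

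Snrpn and Impact went the other way. Snrpn had nearly the same level in both lines at d6 (48.6 and 49.1 CPM) and then 45.6%, 28.0% and 36.9% of the shLacZ level. The tested difference was 2.15-fold lower (log2 fold -1.10, SE 0.28, edgeR adjusted p = 0.0198), and it was lost without d8 (adjusted p = 0.0882), without d10 (0.0890) or without d12 (0.0588). Impact had 413, 347, 329 and 320 CPM in shLacZ and 350, 267, 265 and 242 CPM in shDis3l2, lower on each day with overlapping ranges, and was 1.27-fold lower (log2 fold -0.34, SE 0.06, edgeR adjusted p = 0.00665).

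Peg10 and Sgce, the head-to-head pair on chromosome 6, were higher in shDis3l2 at d6 (1.36-fold and 2.08-fold) and lower at d12 (0.739-fold and 0.743-fold). Over the 4 days the log2 fold of Peg10 was -0.01 (SE 0.14, edgeR adjusted p = 0.965) and that of Sgce 0.07 (SE 0.23, edgeR adjusted p = 0.839). Without d6 the log2 fold of Sgce was -0.25.

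**Figure D4:**
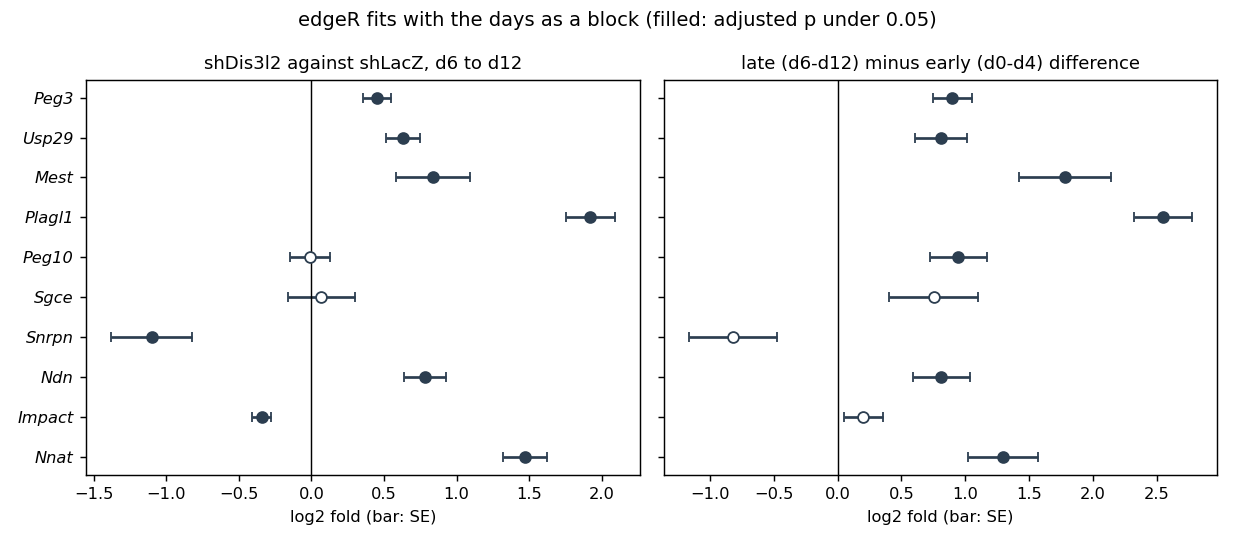
Log2 folds with SE bars from the edgeR fits for the 10 genes, with the difference between the lines over d6 to d12 on the left and the change of that difference from the early to the late days on the right, filled where the adjusted p is under 0.05. Plagl1 is farthest to the right in both panels (1.92 and 2.55), and Snrpn is to the left of 0 in both.

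A change of the line difference from the early days (d0, d2, d4) to the late days (d6 to d12) was tested as an interaction over all 14 libraries. The difference became more positive for 7 of the 10 genes (Plagl1, Mest, Nnat, Peg10, Peg3, Ndn and Usp29) and more negative for none, against 4.85% and 5.24% of the 20050 genes tested. The median change was 0.86 on the log2 scale over the 10 genes and -0.04 over all genes tested. With library totals in place of TMM the median of all genes was 0.13, and 73.3% of the genes called were positive against 48.0%, while the same 7 genes passed. The count was 3 without d2, 4 without d4, 3 without d8 and 2 without d10 (Peg3 and Plagl1). Snrpn, at -0.82 (SE 0.34, edgeR adjusted p = 0.152), passed as more negative without d6 (-1.20, edgeR adjusted p = 0.00456) and without the filter on low counts (-0.79, edgeR adjusted p = 0.000798). Of 18 maternally expressed genes in this test, 7 became more positive and none more negative, with a median change of 1.23. Of 18 other paternally expressed genes, 3 became more positive and none more negative, with a median of 0.27.

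The change was largest for Plagl1 (log2 2.55, SE 0.23, edgeR adjusted p = 0.00075) and next for Mest (1.78, SE 0.36, edgeR adjusted p = 0.0149). Mest was at 29.3%, 57.3% and 57.1% of the shLacZ level at d0, d2 and d4 before its 3.002-fold excess at d6. Peg10, with no difference over the late days as a whole, passed here (0.95, SE 0.22, edgeR adjusted p = 0.0256), with 37.9%, 61.6% and 41.5% of the shLacZ level on the early days. Peg3 was at 52.9%, 66.9% and 77.8% on those days, and its change was 0.90 (SE 0.15, edgeR adjusted p = 0.00932).

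Impact did not pass (0.20, SE 0.15, edgeR adjusted p = 0.429). It was lower in shDis3l2 on all 7 days, at 50.5% of the shLacZ level at d0 and 56.5% to 84.6% afterwards. In the fit over all days it was the only one of the 10 genes to pass, 1.40-fold lower (log2 fold -0.49, SE 0.09, edgeR adjusted p = 0.0192), where 5.72% of all genes passed. That call was lost without d6, d8, d10 or d12, with adjusted p between 0.0522 and 0.0772, which left 0 of the 10 genes.

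The other imprinted genes were described with the same fit over d6 to d12. Of 18 other paternally expressed genes tested, 6 were higher, 5 were lower and 7 did not pass, with a median log2 fold of -0.00. They ranged from Dlk1, a Notch-related membrane protein (2.90, SE 0.10, edgeR adjusted p = 0.00011), to Peg13, a non-coding RNA (-2.56, SE 0.36, edgeR adjusted p = 0.00241). Of 17 maternally expressed genes tested, 13 were higher and none was lower, with a median of 1.06, from Asb4, a substrate adaptor of a ubiquitin ligase (3.67, SE 0.72, edgeR adjusted p = 0.00812), to the calcitonin receptor Calcr (-0.14, SE 0.19, edgeR adjusted p = 0.601).

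Of 15 genes tested that neighbour the 10 genes, 8 were higher and 1 lower, with a median of 0.29. Zim1, the maternally expressed zinc finger gene beside Peg3, was at the top (3.05, SE 0.18, edgeR adjusted p = 0.000255) and Magel2, a paternally expressed gene beside Ndn, at the bottom (-0.63, SE 0.16, edgeR adjusted p = 0.0207). Some neighbours are imprinted and stand in 2 of these lists. The medians of all compared genes on chromosomes 2, 6, 7, 10 and 18 lay between -0.03 and 0.10 on the days d6 to d12, so the chromosomes as a whole moved little.

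A list of 14 genes of imprint control held genes that set or protect DNA methylation and also Tet1 and Tet2, which act to remove it. Of these 14 genes, 2 were higher, 5 lower and 7 did not pass, with a median of -0.13. Tet2, a methylcytosine dioxygenase, was highest (1.11, SE 0.21, edgeR adjusted p = 0.0070) and Dnmt3l, the cofactor of the de novo DNA methyltransferases, lowest (-2.38, SE 0.41, edgeR adjusted p = 0.00502). From d0 to d4, while 9 of the 10 genes rose, 7 of the 14 rose and 6 fell in both lines together.

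**Figure D5:**
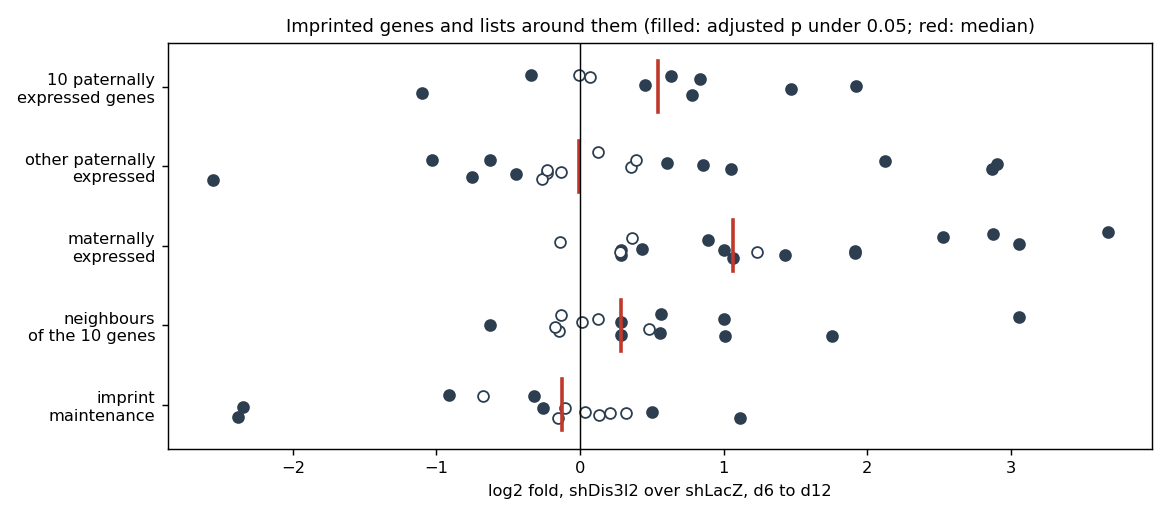
Log2 fold of shDis3l2 over shLacZ from the edgeR fit over d6 to d12, 1 point per gene. The 10 genes stand beside lists of other imprinted genes, neighbours and genes of imprint control (labelled imprint maintenance). Points are filled where the adjusted p is under 0.05, with a red line at the median. The median is 0.54 for the 10 genes, -0.00 for the other paternally expressed genes and 1.06 for the maternally expressed genes, with points on both sides of 0 in every list.

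Markers of cell types moved between the lines over the same days. Mesenchyme markers summed to 343 to 1918 CPM in shLacZ and 1091 to 16715 CPM in shDis3l2, with 8 of 9 higher. Visceral endoderm markers summed to 2806 to 6361 CPM and 551 to 1730 CPM, with 8 of 8 lower, and pluripotency markers to 475 to 643 CPM and 77.7 to 453 CPM, with 8 of 10 lower. Of 9 neural markers 1 was higher and 4 were lower (48.5 to 115 CPM and 77.8 to 191 CPM). All 5 cardiomyocyte markers tested were higher (15.6 to 36.7 CPM and 23.3 to 163 CPM), and Nppa had 3 reads or fewer in each late shLacZ library. Of 4 endothelial markers 1 was higher (86.5 to 199 CPM and 191 to 373 CPM), as was 1 of 3 blood markers (3.81 to 549 CPM and 20.5 to 696 CPM). Their part in the differences of the 10 genes was not tested.

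The protein-coding genes most like 5 of the 10 genes were taken by Pearson's r of log2(CPM + 1) over the 14 libraries, among 11556 candidates with at least 10 CPM in 1 library. The libraries share lines, days and depth, so r describes the pattern only. Plagl1 was nearest to Lum (r = 0.982), Sox5 (0.974) and Tshz2 (0.971), of which Lum, the proteoglycan lumican, is one of the mesenchyme markers above. Nnat was nearest to Dhx57, Cxcl12 and Pogk (0.981 to 0.982), Mest to Stx12, Hsp90b1 and Mllt3 (0.978 to 0.979), Peg3 to Usp47, Otud7b and Bach1 (0.994 to 0.995) and Peg10 to Ubxn4, Mtpn and Ets1 (0.990 to 0.992).

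Among the 10 genes themselves, r over the 8 libraries of d6 to d12 was 0.97 between Peg3 and Usp29 and 0.42 between Peg10 and Sgce. It was -0.74 between Ndn and Snrpn, which share a cluster. Plagl1 and Nnat, on different chromosomes, had 0.94, and Plagl1 and Impact -0.92. These values depended on the days taken. In the same order of pairs, r was 0.96, 0.96, -0.91, 0.92 and 0.05 over the 12 libraries of d2 to d12. Over all 14 libraries it was 0.99, 0.92, -0.32, 0.68 and 0.31.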

How the data were processed

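PolyA RNA of the shLacZ and shDis3l2 lines was measured in 14 libraries, with 1 library for each line on each day. Subread alignment to GRCm38 (Ensembl release 88) and featureCounts were run by the authors, who deposited raw read counts per gene. The deposited CPM of protein-coding genes were made by the authors with edgeR and served for the gene names, the set of genes compared by day and 1 alternative. The file headers name the knockdown columns by another hairpin name, and these were taken as shDis3l2, the only line besides shLacZ in the labels. Levels were recomputed from the counts after adding a prior count of 0.25, scaled by library totals. The fold threshold of 3 by day is the one used in the study. Tests used edgeR 4.0.16 in R 4.3.3 (quasi-likelihood, TMM, filterByExpr, Benjamini-Hochberg adjusted p under 0.05), with DESeq2 1.42.0 as an alternative, and were checked on simulated data. The SE given with a log2 fold is its absolute value divided by the square root of the F statistic of the edgeR test. TMM factors were 0.764 and 0.642 at d0 (shLacZ, shDis3l2) and 0.999 to 1.12 elsewhere. The floor of 3 reads was 0.0752 to 0.418 CPM. Reads have no molecular identifiers, so intervals cover counting error only. The 10 genes and all lists were chosen with earlier results of these data known. Named besides the 10 genes were the 3 genes most like 5 of them, the extremes of each list over d6 to d12, and overlapping genes. Copg2 was named after its values were seen. Python 3.11.15 was used for the other steps.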

Additional observations from a re-analysis of the deposited data

Results flagged for a closer look

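The difference between the lines changed from the early days (d0, d2, d4) to the late days (d6 to d12) by the edgeR interaction test for 7 of the 10 genes. The change, late minus early on the log2 scale, was 2.55 for Plagl1, 1.78 for Mest, 1.30 for Nnat, 0.95 for Peg10, 0.90 for Peg3, 0.81 for Usp29 and 0.81 for Ndn. By library totals all 7 had lower levels in shDis3l2 at d0 and at d2, as had the other 3, while Ndn was higher at d0 with DESeq2 size factors. At d4 Nnat was already 1.47-fold higher (interval 1.28 to 1.69) and Ndn was at 1.07-fold (interval 0.914 to 1.25), while 8 of the 10 genes were lower. Counting intervals included 1 for Usp29, Ndn and Nnat at d0 and for Usp29 at d2. The call held without any 1 day for Plagl1 and Peg3, whose adjusted p stayed at or below 0.0443, and was lost without d10 for the other 5. Groups of 1 library per line and day allow no test of a single library against its group.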

How the results depend on the processing

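The p-values rest on 1 series with 1 library per line and day, and depth limits Usp29 and Nnat at d0, where their intervals include 1. Intervals also included 1 for Ndn at d0 and d4, Usp29 at d2 and d4, Snrpn at d6, Sgce at d8 and Mest at d12. For d6 to d12, 8 of the 10 genes passed, as many with library totals, DESeq2 size factors or no filter, 7 with DESeq2 and 2 without the day block, with 5 to 7 when a day was left out. Over all genes 6574 passed, 3334 without the day block and 3336 to 6677 when a day was left out. Over all days 1 of the 10 passed, 2 with library totals, 3 without the filter, 3 with DESeq2, 0 without the day block and 0 to 2 when a day was left out. There 1147 of all genes passed, 2093 without the filter, 2511 with DESeq2, 0 without the day block (627 at an unadjusted p under 0.05) and 8 to 2189 when a day was left out. For the change of the difference, 7 of the 10 passed, 9 without the filter (Sgce and Snrpn added) and 2 to 8 when a day was left out, while over all genes 2023 passed, 3279 without the filter and 524 to 2151 when a day was left out. From d0 to d4, 9 to 10 passed when a library was left out, and 10831 to 13987 of all genes.

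The count of genes at least 3-fold changed fell from 1 to 0 at d0 with TMM or DESeq2 size factors and from 2 to 1 at d6 with TMM or the deposited denominators. At a fold of at least 2 it was 4, 0 and 1 on d0, d2 and d4 and 4, 3, 5 and 2 from d6 to d12. The share of all genes past 2-fold was not counted, so these counts have no base rate beside them. Directions turned for values near 0. The log2 fold of Peg10 over d6 to d12 was 0.000374 with library totals, 0.00170 without the filter, 0.0887 without the day block and -0.164 to 0.146 when a day was left out, and that of Sgce was -0.254 to 0.247. Over all days Peg3 ranged from -0.0969 to 0.151 and Mest from -0.246 to 0.286 when a day was left out. Plagl1 from d0 to d4 was 0.137 with library totals. No other value of the 10 genes changed direction in these fits, and the causes were not tested.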
